A study of Mus musculus with 8 samples.

Results

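RNA levels of 10 genes of mitochondrial fusion and fission were examined in cochleae of 4 WT mice and 4 heterozygous *Opa1*+/- mice. The genes are *Mfn1*, *Mfn2*, *Dnm1l*, *Fis1*, *Mff*, *Mief1*, *Mief2*, *Gdap1*, *Mtfp1* and *Mtfr1*. They were chosen by symbol for their place in outer membrane fusion, in fission or in its regulation, and they are 10 of the 47502 distinct gene symbols counted. Each symbol occurred once in every count table, and all 10 were among the 19366 genes tested. The *Opa1*+/- mice carry 1 knock-in allele of the recurrent human OPA1 delTTAG deletion in every cell, and the controls were WT littermates of the same genetic background, a mix of C57BL/6J and another inbred strain. All mice were untreated and were sampled at 21 days of age by the methods, an age that other passages of the study give as 1 month. The WT animals are labelled WT_4, WT_5, WT_6 and WT_8 and the *Opa1*+/- animals Het_2, Het_7, Het_484 and Het_491, and values per mouse are given in this order throughout. RNA was taken from whole cochlea, a tissue of many cell types, so that fewer cells of a type and less RNA per cell cannot be told apart.

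Mitochondria are joined and divided by large GTPases of the dynamin superfamily. The mitofusins, encoded by *Mfn1* and *Mfn2*, tether and fuse outer membranes, and OPA1, the protein targeted in these mice, fuses the inner membranes. Division is carried out by DRP1, the product of *Dnm1l*, a cytosolic protein that forms a constricting ring after receptors on the outer membrane have recruited it. *Mff*, *Mief1* and *Mief2* encode such receptors, and *Fis1* encodes a further outer membrane protein of this machinery. *Gdap1* encodes an outer membrane protein of neurons and Schwann cells whose variants cause Charcot-Marie-Tooth neuropathy, *Mtfp1* an inner membrane protein and *Mtfr1* a mitochondrial protein, each linked to division. Long axons such as those of the auditory nerve depend on this balance, and variants of *MFN2* cause an inherited neuropathy as those of OPA1 cause optic atrophy.

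Several of these genes have a close relative, so the coding sequences were compared first to see whether reads of 80 bases could pass from a gene to its relative. The stretches of 2 pairs are shown because each holds the longest run of identical bases between the relatives. Sequences are from the GENCODE vM21 principal transcripts on GRCm38, 60 bases each, read 5′ to 3′ on the gene's own strand, with capitals for bases that are identical in both members of the pair. The first pair is exon 6 of *Mief1* (chr15:80249542-80249601, plus strand) and exon 4 of *Mief2* (chr11:60731380-60731439, plus strand), and the second spans exons 1 and 2 of *Gdap1* on chromosome 1 and of *Gdap1l1* on chromosome 2.
Mief1: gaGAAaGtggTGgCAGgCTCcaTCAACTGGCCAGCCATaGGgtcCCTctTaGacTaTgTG
Mief2: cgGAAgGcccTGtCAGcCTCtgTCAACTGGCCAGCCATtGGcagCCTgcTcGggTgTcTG
Gdap1: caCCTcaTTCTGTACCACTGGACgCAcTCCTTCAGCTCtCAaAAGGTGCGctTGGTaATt
Gdap1l1: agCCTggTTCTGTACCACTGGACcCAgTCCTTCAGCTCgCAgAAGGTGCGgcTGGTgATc

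The *Mfn1* and *Mfn2* coding sequences were identical at 68.2% of 2195 aligned bases, with a longest identical run of 21 bases. For *Mief1* and *Mief2* the figures were 58.4% of 1334 bases and a run of 16 bases, and for *Gdap1* and *Gdap1l1* 66.4% of 1022 bases and a run of 16 bases. None of these runs reaches the length of a read. Runs of at least 80 identical bases with other genes were found for *Dnm1l*, *Mff*, *Mief1* and *Mtfr1*. The *Dnm1l* transcripts aligned to the listed gene *Gm13719* over 2153 bases with 91.1% identity, and *Gm13719* had a mean of 22.4 counts per mouse against 2249 counts or more for *Dnm1l*. *Mtfr1* shared such a run with *Gm12040*, which had a mean of 0.375 counts per mouse. *Mff* overlapped the antisense transcript *C430014B12Rik* over 195 exonic bases, at a mean of 3.12 counts. *Mief1* shares 213 exonic bases with *AC140267.1* and *Dnm1l* shares 243 with the antisense *Gm49521*, and neither is among the gene symbols of the tables. The methods do not say whether counting used strand, so reads in these overlaps are uncertain.

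The WT libraries held 17001431 to 20828030 counts on genes with a symbol and the *Opa1*+/- libraries 15978051 to 20204154, and levels are given as CPM, counts scaled to a common library size, after TMM scaling. The targeted gene, *Opa1*, stood at 119, 126, 112 and 122 CPM in WT and at 63.5, 68.4, 60.4 and 70.02 CPM in *Opa1*+/- mice. Cochlear markers were present in every group, with summed hair cell genes from 107 to 164 CPM and spiral ganglion neuron genes from 6021 to 7231 CPM over the 8 mice. For marker sums of 9 tissues or cell types the exact two-sided permutation p between genotypes ran from 0.171 to 0.943, and none of the markers found was at 0 in all mice. The lowest p was that of erythroid genes, which summed to 21516, 12384, 8785 and 7801 CPM in WT and 15503, 15128, 18513 and 25128 CPM in *Opa1*+/- mice, and skeletal muscle genes varied from 30.8 to 2418 CPM. Some lists leaned to 1 side gene by gene. All 11 Schwann cell and all 9 erythroid markers had a fitted change above 0 in *Opa1*+/- mice. Only 1 of 8 stria vascularis and 0 of 10 skeletal muscle markers did. The remaining lists ran from 2 of 8 fibrocyte, supporting cell and matrix markers to 6 of 12 neuron markers. Summed CPM of 12 nuclear-encoded mitochondrial enzymes and carriers, which say nothing of RNA of the mitochondrial genome, were 2555 ± 190 in the WT and 2607 ± 112 in the *Opa1*+/- group (SD with n = 4 each, p = 0.629 by exact permutation). In all 8 mice *Xist* was at 0.392 CPM or less and 4 Y-linked genes summed to 125 CPM or more, so the libraries were male. The study describes its results in general as taken from both sexes, and the values here cover males only.

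Levels of different genes can be compared only per length, and for this the CPM were divided by the kilobases of joined exons (RPKM). *Fis1* had the highest level of the 10 genes, 40.1 ± 1.46 RPKM (SD, n = 8), followed by *Dnm1l* at 29.7 ± 2.61 RPKM and *Mfn2* at 22.3 ± 1.38 RPKM (SD, n = 8 each). These 3 genes stood in the same order in all 8 mice, and their ranges over the mice did not overlap. *Mff* (10.8 ± 0.389 RPKM), *Mfn1* (10.6 ± 0.845 RPKM) and *Gdap1* (10.4 ± 0.916 RPKM) had overlapping ranges (SD, n = 8 each). *Mff* exceeded *Mfn1* in 4 of 8 mice and *Mfn1* exceeded *Gdap1* in 6 of 8, so on this length no order can be given among them. Below these came *Mtfr1* at 7.78 ± 0.455 RPKM, and *Mtfp1* at 5.98 ± 1.24 RPKM, with overlapping ranges (SD, n = 8 each). *Mief2* (2.80 ± 0.322 RPKM) and *Mief1* (2.47 ± 0.208 RPKM), which encode paralogous receptors, were lowest and also overlapped (SD, n = 8 each). Per kilobase of joined exons the most and least abundant members differed 16.2 times. The mitofusin levels differed as well, with *Mfn2* above *Mfn1* in every mouse. The choice of length matters most for *Mff*, whose annotation joins 9757 exonic bases while its principal transcript has 1894, and on the length of the principal transcript *Mff* came second, at 55.8 RPKM, between *Fis1* at 87.4 and *Dnm1l* at 39.0 RPKM. On that length *Mief2*, at 3.02 RPKM, was the lowest in place of *Mief1*, at 3.89 RPKM. *Gdap1*, at 20.3 RPKM, then stood above *Mfn1*, at 14.2 RPKM, with ranges of 17.8 to 23.5 and 12.6 to 15.8 RPKM over the mice.

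**Figure D1:**
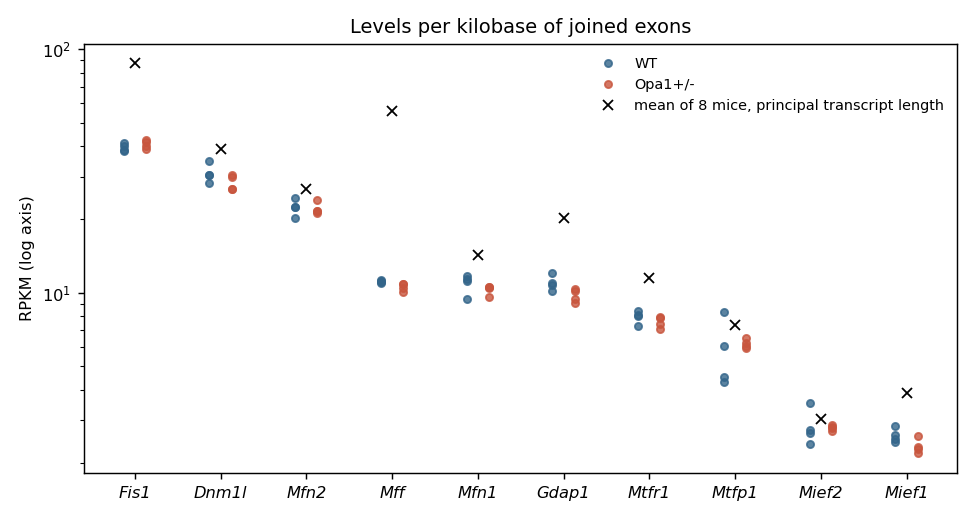
Level of each gene in RPKM on a log axis, per kilobase of joined exons, with 1 point per mouse for 4 WT and 4 Opa1+/- mice and a cross for the mean of 8 mice per kilobase of the principal transcript. Fis1, Dnm1l and Mfn2 lead at 40.1, 29.7 and 22.3 RPKM, Mief1 is lowest at 2.47 RPKM, and the cross of Mff lies far above its points.

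The comparison of genotypes asked whether a lower dose of *Opa1* RNA goes along with altered RNA of the other fusion and fission genes. No member passed an adjusted p of 0.05 in edgeR's quasi-likelihood test, where 0.0258% of all tested genes did, or in DESeq2, where 0.119% did. Without adjustment, 1 of the 10 genes, *Gdap1*, had a p under 0.05 by edgeR and by DESeq2, where 6.72% and 5.62% of all tested genes passed. It was lower in *Opa1*+/- mice, the direction of 3.22% of all tested genes. Fitted log2 fold changes were below 0 for 8 of the 10 members, against 49.9% of all genes tested, and their median was -0.071 against 3.95e-04 over all genes. All 10 lay between -0.17 and 0.09, whereas that of *Opa1* was -0.87 (standard error 0.0677, adjusted p = 0.00515 from edgeR). The groups of 1 member, *Mff*, did not overlap, with *Opa1*+/- below WT as in 2.33% of all tested genes, and 4.31% did not overlap in either direction. For 8 members the 95% interval of the change stayed within -20.4% and 11.6%, and the exceptions were *Mief2* and *Mtfp1*, the genes with the fewest counts.

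**Figure D2:**
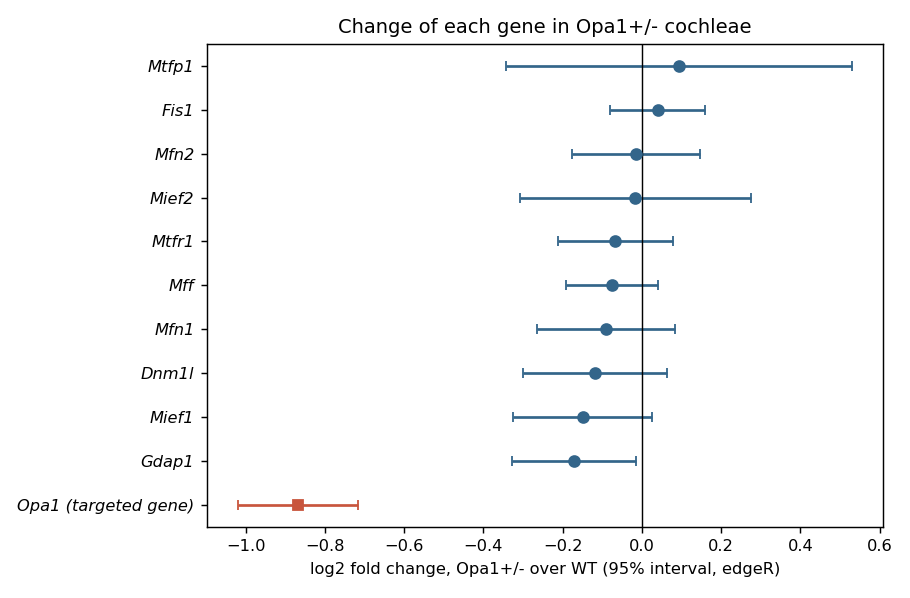
Log2 fold change of each gene in Opa1+/- over WT cochleae from edgeR's fit (points) with its 95% interval (bars), for the 10 genes and, as a square, the targeted gene Opa1. The interval of Opa1 lies far below those of all other genes, and of the 10 only that of Gdap1 leaves out 0.

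Of the mitofusins, *Mfn1* (chr3:32529465-32579239, plus strand, GRCm38 here and below) stood at 57.4, 69.9, 71.9 and 68.6 CPM in WT and at 64.4, 64.8, 63.8 and 58.5 CPM in *Opa1*+/- mice. WT_4 was lowest of all 8 mice, the other WT mice were above every *Opa1*+/- mouse, and Het_491 stood apart below its group. The group values were 67.0 ± 6.51 and 62.9 ± 2.97 CPM (SD, n = 4 each), a change of -6.12% with a 95% interval from -16.8% to 5.90% (adjusted p = 0.839 from edgeR). The size of the change depended on WT_4, for without it the log2 fold change was -0.16 in place of -0.09 (unadjusted p = 0.0284 and adjusted p = 0.436 from edgeR). In that fit *Mfn1* was the 1 member with an unadjusted p under 0.05, as were 10.4% of all tested genes. Without WT_6 the log2 fold change was -0.055.

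*Mfn2* (chr4:147873599-147904704, minus strand), the more abundant mitofusin, had 105, 127, 117 and 117 CPM in WT and 113, 124, 110.0 and 113 CPM in *Opa1*+/- mice. Again WT_4 was lowest, and the groups overlapped fully. The means were 116 ± 8.90 and 115 ± 6.30 CPM (SD, n = 4 each), with a change of -1.03% and an interval from -11.5% to 10.7% (adjusted p = 0.976 from edgeR). Its sign turned in the absence of WT_5 (log2 fold change 0.030) or Het_484 (0.010).

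The fission GTPase gene *Dnm1l* (chr16:16312230-16358959, minus strand) was counted at 181, 158, 146 and 158 CPM in WT and at 139, 156, 139 and 159 CPM in *Opa1*+/- mice. Here WT_4 was the highest of all, and Het_2 and Het_484 lay below every WT mouse while Het_7 and Het_491 lay among them. Group values were 161 ± 14.6 CPM for WT against 148 ± 10.5 CPM (SD, n = 4 each). The change of -7.85% had a 95% interval from -18.8% to 4.55% (adjusted p = 0.795 from edgeR and 0.999 from DESeq2). Without WT_4 the log2 fold change was -0.055 in place of -0.12, and without WT_6 it was -0.16.

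Among the receptors, *Mff* (chr1:82724890-82752394, plus strand) was the steadiest gene in WT mice, at 109, 108, 106.6 and 109.9 CPM, and it stood at 98.6, 102, 105.6 and 105.6 CPM in *Opa1*+/- mice. Every *Opa1*+/- mouse was below every WT mouse, though WT_6 and Het_484 and Het_491 lay close together. The values of 108 ± 1.45 and 103 ± 3.37 CPM (SD, n = 4 each) corresponded to -5.08%, with an interval from -12.4% to 2.79% (adjusted p = 0.795 from edgeR). The coefficient of variation of 1.33% among WT mice is smaller than the spread that edgeR assigns to this gene from all libraries and all genes, a biological coefficient of variation of 0.0846.

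*Mief1* (chr15:80234018-80253371, plus strand), which encodes the receptor MiD51, was at 20.3, 19.8, 21.1 and 23.0 CPM in WT and at 17.7, 18.8, 18.5 and 20.9 CPM in *Opa1*+/- mice. Of the *Opa1*+/- mice, 3 were below all WT mice and Het_491 was not. The means were 21.05 ± 1.42 and 19.0 ± 1.34 CPM (SD, n = 4 each), a change of -9.81% with an interval from -20.1% to 1.85% (adjusted p = 0.760 from edgeR). Its paralogue *Mief2* (chr11:60728398-60732951, plus strand), encoding MiD49, had 7.42, 7.18, 9.56 and 6.51 CPM in WT and 7.80, 7.32, 7.61 and 7.53 CPM in *Opa1*+/- mice. WT mice held both the highest and the lowest value, and the 4 *Opa1*+/- mice lay between them. Group values of 7.67 ± 1.32 and 7.57 ± 0.201 CPM (SD, n = 4 each) gave a change of -1.16%, with a wide interval from -19.2% to 20.96% (adjusted p = 0.984 from edgeR). Leaving out WT_6 turned the log2 fold change of *Mief2* to 0.11.

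*Fis1* (chr5:136953275-136966234, plus strand), the member with the highest level per length, had 70.7, 66.4, 68.5 and 65.5 CPM in WT and 71.2, 66.6, 68.4 and 72.4 CPM in *Opa1*+/- mice. The groups overlapped, with Het_2 and Het_491 above all WT mice. Means of 67.8 ± 2.33 and 69.7 ± 2.62 CPM (SD, n = 4 each) differed by 2.78%, with an interval from -5.35% to 11.6% (adjusted p = 0.907 from edgeR). *Fis1* had a fitted fold change above 0, unlike *Mff*, *Mief1* and *Mief2*, and it kept that direction in all 19 alternative fits. Its log2 fold change of 0.040 was 0.018 without Het_491, 0.020 without WT_8 and 0.061 without WT_4 or without Het_7. With libraries scaled by total counts alone it was 0.012.

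*Gdap1* (chr1:17145362-17164271, plus strand), the neuropathy gene among the regulators, stood at 92.9, 85.2, 78.6 and 83.2 CPM in WT and at 72.5, 78.9, 70.5 and 79.9 CPM in *Opa1*+/- mice. Het_2 and Het_484 were below all WT mice, and WT_6 lay within the *Opa1*+/- range. The means were 85.0 ± 5.93 and 75.4 ± 4.64 CPM (SD, n = 4 each). The change was -11.2% with an interval from -20.4% to -0.996%, an unadjusted p of 0.0354 and an adjusted p of 0.728 from edgeR. The unadjusted p was under 0.05 in 12 of 19 alternative fits, and it was 0.107 without WT_4, the mouse with the highest *Gdap1*, and also missed 0.05 without WT_5, WT_8, Het_2 or Het_484, without both Het_484 and Het_491, and without both WT_4 and Het_491 (0.0517). Summed markers of spiral ganglion neurons, a cell type that expresses *Gdap1*, were 7132, 6021, 7033 and 6924 CPM in WT and 6479, 6552, 6199 and 7231 CPM in *Opa1*+/- mice. Those of Schwann cells were 4776, 3917, 4894 and 3629 CPM in WT and 5804, 4303, 4659 and 4876 CPM in *Opa1*+/- mice. Within the *Opa1*+/- group, Het_484 was lowest and Het_491 highest for both *Gdap1* and the neuron markers. In the WT group WT_4 was highest for both, and the lowest neuron sum, that of WT_5, came with the second highest *Gdap1*. The part of these cells in the *Gdap1* values was not tested.

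*Mtfr1* (chr3:19187327-19220817, plus strand) had 31.8, 36.8, 35.2 and 35.5 CPM in WT and 32.5, 34.8, 34.5 and 31.1 CPM in *Opa1*+/- mice. The groups overlapped, and WT_4 and Het_491 were lowest in their groups, as they were for *Mfn1*. Means of 34.8 ± 2.14 and 33.2 ± 1.73 CPM (SD, n = 4 each) gave a change of -4.53% with an interval from -13.6% to 5.54% (adjusted p = 0.859 from edgeR). The log2 fold change of -0.067 was -0.11 without WT_4, -0.039 without WT_5 and -0.040 without Het_491. *Mtfp1* (chr11:4091480-4095445, minus strand) had the widest spread of the 10 genes among WT mice, at 7.48, 7.81, 14.5 and 10.5 CPM, a coefficient of variation of 32.1%. In *Opa1*+/- mice it was at 10.5, 10.8, 10.3 and 11.3 CPM, a coefficient of variation of 3.99%. That value is smaller than the biological coefficient of variation of 0.198 that edgeR assigns to *Mtfp1*. At 167 to 215 counts these mice also carry counting error, so the value does not show a tighter level. All *Opa1*+/- values lay within the WT range, and with means of 10.1 ± 3.23 and 10.7 ± 0.428 CPM (SD, n = 4 each) the change of 6.76% had an interval from -21.1% to 44.5% (adjusted p = 0.943 from edgeR). Single WT mice decided its direction, for the log2 fold change was -0.021 without WT_4, -0.010 without WT_5 and 0.32 without WT_6. WT_6, with the highest *Mtfp1* and *Mief2*, also had the highest sum of 10 skeletal muscle genes, 2418 CPM, while the remaining WT mice had 280.3 to 661 CPM. It was highest of all mice for hair cell (164 CPM), stria vascularis (1430 CPM) and fibrocyte, supporting cell and matrix markers (5116 CPM) too. Among WT mice it was also highest for Schwann cell markers (4894 CPM). In *Opa1*+/- mice the muscle sum was 299.8, 1226, 982 and 30.8 CPM, and *Mtfp1* was highest in Het_491, which had the lowest muscle sum. Het_491 was highest of its group for hair cell markers and lowest for fibrocyte, supporting cell and matrix markers. The part of muscle or of these other tissues in the values was not tested.

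The study measured *Dnm1l* and *Mfn1* as its markers of fission and fusion by another assay, and their ratio within a mouse does not depend on scaling between libraries. The ratio of *Dnm1l* to *Mfn1* CPM was 3.16, 2.26, 2.04 and 2.30 in WT and 2.16, 2.41, 2.18 and 2.71 in *Opa1*+/- mice. WT_4 was highest and Het_491 was next, while the remaining mice of both groups lay between 2.04 and 2.41. The groups had means of 2.44 ± 0.493 and 2.37 ± 0.256 (SD, n = 4 each), a difference well within the spread between mice. On the log2 scale the *Opa1*+/- minus WT difference was -0.030, and it was 0.10 without WT_4 and 0.034 without both WT_4 and Het_491.

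WT_4 and Het_491 were also the mice with the highest erythroid sum of their groups, 21516 and 25128 CPM, and the highest neutrophil and marrow sum, 1421 and 1176 CPM. The same mice had the highest spiral ganglion neuron sum of their groups, 7132 and 7231 CPM. Their sums of fibrocyte, supporting cell and matrix markers, 3454 and 3704 CPM, were the lowest. They were the lowest of their groups for *Mfn1* and *Mtfr1* and the highest for *Dnm1l*, *Gdap1* and *Fis1*. In a fit without both mice, which was added once their values were known, the log2 fold changes were -0.13 for *Mfn1*, -0.093 for *Dnm1l*, -0.087 for *Mff*, -0.16 for *Gdap1* and -0.22 for *Mief1*, and again no member passed the adjusted threshold. The unadjusted p was under 0.05 for 2 members in that fit, *Mfn1* (0.0464 from edgeR) and *Mief1* (0.0316), beside 8.73% of all tested genes, and *Gdap1* was no longer among them (0.0517). The part of erythroid, marrow, neuron or matrix cell RNA in the pattern was not tested.

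**Figure D3:**
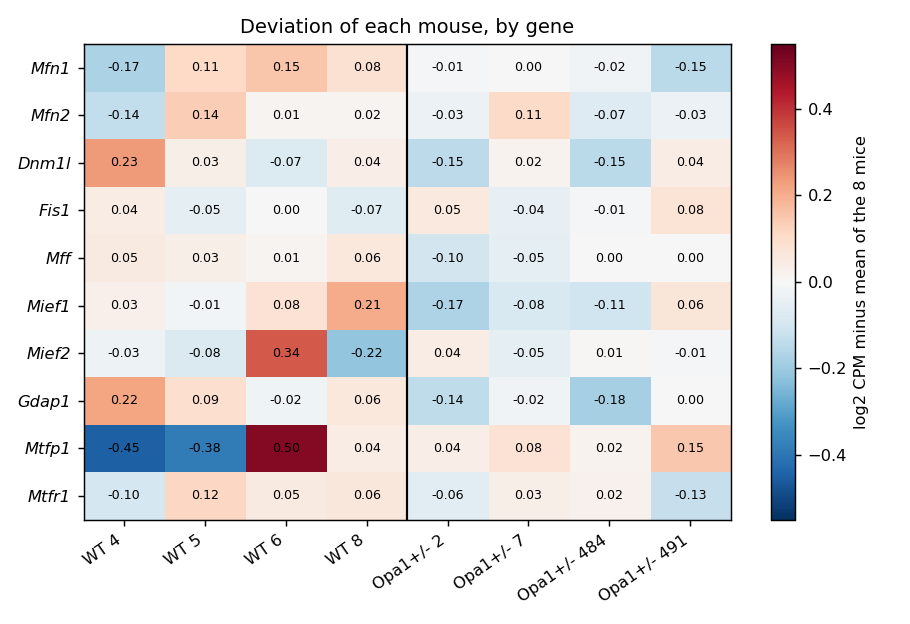
Log2 CPM of each gene in each mouse minus the mean of the 8 mice, printed in the cells, with red for values above and blue for values below the mean and a line between WT and Opa1+/- mice. Deviations of Fis1 and Mff lie between -0.10 and 0.08, those of Mtfp1 reach -0.45 and 0.50 in WT_4 and WT_6, and Mfn1 and Dnm1l deviate in opposite directions in WT_4.

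**Figure D4:**
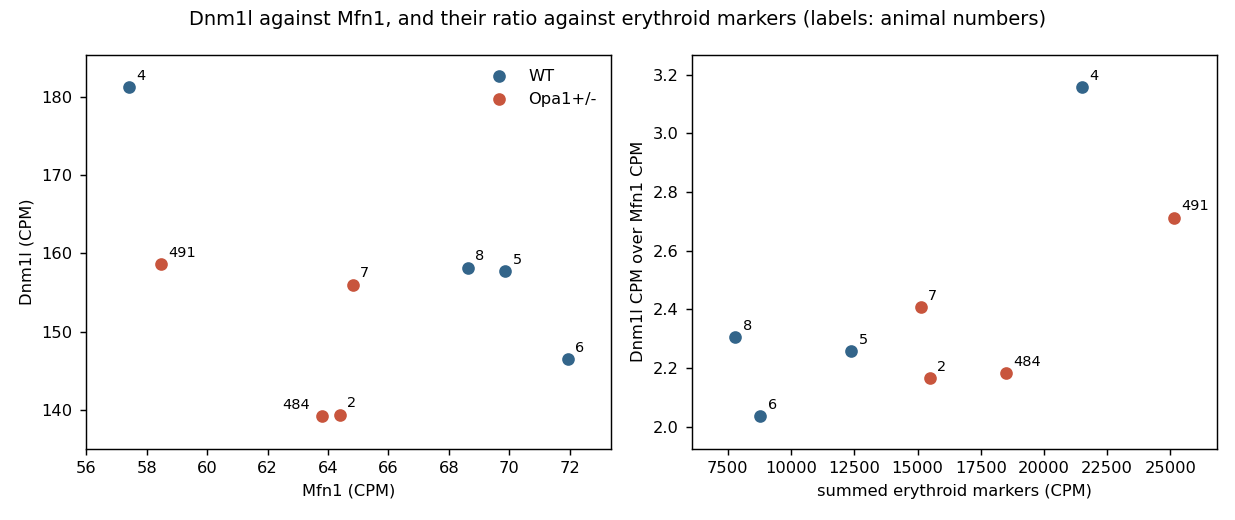
Left, Dnm1l against Mfn1 in CPM, and right, their ratio against the summed CPM of erythroid markers, with 1 point per mouse labelled by animal number (WT in blue, Opa1+/- in red). WT_4 and Het_491 have the lowest Mfn1, 57.4 and 58.5 CPM, and the highest ratios, 3.16 and 2.71.

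Other genes of mitochondrial dynamics were taken from a list of 25 genes beside *Opa1*, of which 24 were tested and *Pld6* lay under the count minimum. None passed an adjusted p of 0.05 in edgeR or DESeq2. Without adjustment 1 gene was higher and 2 were lower in *Opa1*+/- mice, beside 3.51% and 3.22% of all tested genes in these directions, and the median log2 fold change was 0.0063. The gene that was higher was *Inf2*, encoding a formin that assembles actin at sites of division, at 55.9, 56.1, 59.9 and 58.9 CPM in WT and 66.4, 61.1, 69.4 and 63.3 CPM in *Opa1*+/- mice. Its groups did not overlap, with *Opa1*+/- above WT as in 1.98% of all tested genes, and its fitted log2 difference was 0.17 with a standard error of 0.0577 and an adjusted p of 0.722 by edgeR. The lower genes were *Senp5*, encoding a SUMO protease that acts on DRP1 (23.8 ± 1.99 against 20.9 ± 1.38 CPM), and *Fundc1*, encoding an outer membrane mitophagy receptor (56.4 ± 3.78 against 51.3 ± 1.62 CPM, SD, n = 4 each). Their log2 fold changes were -0.19 and -0.14, with adjusted p-values of 0.732 and 0.735 from edgeR. By DESeq2 the unadjusted p of both missed 0.05 (0.0574 and 0.0606), that of *Inf2* was 0.0208, and that of *Slc25a46*, encoding an outer membrane carrier protein, was 0.0487 (0.0514 by edgeR). The groups of *Fundc1* and *Slc25a46* did not overlap, with *Opa1*+/- below WT as in 2.33% of all tested genes. The 5 motility genes that link mitochondria to the cytoskeleton, *Rhot1*, *Rhot2*, *Trak1*, *Trak2* and *Myo19*, had log2 fold changes from -0.23 to 0.036, none with an unadjusted p under 0.05. The same held for *Oma1* and *Yme1l1*, the proteases that cleave OPA1, whose log2 fold changes were 0.0087 and -0.12.

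Genes whose levels followed *Dnm1l* and *Mfn1* most closely were looked up over the 8 mice among 19365 other genes tested, as a description only, since with 8 mice many genes reach a high correlation and all share their libraries. For *Dnm1l* the closest were *Cadps*, which encodes a protein of dense-core vesicle release, with a Pearson correlation of 0.960 on log2 CPM, *Rab6a*, a Golgi transport gene, with 0.953, and *Gdap1*, itself a member, with 0.951. Spearman's rho was 0.929, 0.881 and 0.905 for these genes, and Pearson's correlation was 0.989, 0.881 and 0.857 without the 2 mice farthest from the median of *Dnm1l*. For *Mfn1* the closest were *Slc41a2*, a magnesium transporter gene, with 0.984, *Sft2d2* with 0.981 and *Ctnnb1*, encoding beta-catenin, with 0.975. Their Spearman's rho was 0.905, 0.976 and 0.857, and without the 2 mice farthest from the median of *Mfn1* the Pearson correlations were 0.968, 0.957 and 0.969. No gene was among the 3 closest to both *Dnm1l* and *Mfn1*.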

How the data were processed

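Cochlear RNA of 4 WT and 4 *Opa1*+/- mice was sequenced by the authors as CORALL libraries, with 80 nucleotides read from each end. Per the methods and the submitters' processing notes, reads were checked with FastQC, trimmed, mapped to GRCm38/mm10 with STAR and corrected for amplification with molecular identifiers. The methods name the CORALL Data Analysis Pipeline for the raw data. The counting program within it, its annotation and its use of strand are not given in the sources used here. The authors deposited raw counts per gene symbol for each mouse, without normalization. After removal of 15 entries without a gene symbol, which held 0.112% to 0.124% of the counts, 47628 remained.

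Tested were the 19366 genes whose mean count scaled by DESeq2 size factors exceeded 10, with edgeR 4.0.16 (quasi-likelihood test, TMM factors from 0.948 to 1.06, Benjamini-Hochberg adjustment over all genes, threshold 0.05). Standard errors follow from the F statistic of each log2 fold change, and 95% intervals use the t distribution of the fit. Members had 118 counts or more in every mouse, and values carry counting error beside the spread between mice. For marker sums, exact permutation of the mice (two-sided, 70 arrangements) can reach a p of 0.0286 at the lowest. Replicates differed by 6.99 times the sampling variance or more, so none was a repeated library. The labels do not give the litter of a mouse, and the fit was unpaired. Gene lengths and positions came from GENCODE vM21, and shared sequence was searched with blastn 2.17.0. DESeq2 1.42.0, limma 3.58.1 (voom) and sva 3.50.0 under R 4.3.3 served as alternatives. Named were all members, the targeted gene, genes of the dynamics list with an unadjusted p under 0.05 (the lowest 5 if more), and the 3 genes closest to *Dnm1l* and to *Mfn1*. *Slc25a46*, *Oma1*, *Yme1l1* and the motility genes were added after their values were seen. Members and lists were chosen with earlier results of these data known. One sequence is not reported here.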

Additional observations from a re-analysis of the deposited data

Results flagged for a closer look

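Of 42 groups of 4 mice examined for a mouse far from the others, 2 held such a mouse by Dixon's criterion on the gap over the range, which was 0.841 and 0.902, and chance gives about 1 in 20. *Mfn1* in Het_491 was 58.5 CPM against 63.8 to 64.8 CPM in the other *Opa1*+/- mice. The summed neutrophil and marrow markers in WT_4 were 1421 CPM, while WT_5, WT_6 and WT_8 had 431 to 528 CPM.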

How the results depend on the processing

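No member passed the adjusted threshold in any of 20 alternatives, which included other scalings, tests, filters, a surrogate variable, a threshold of 0.1 and mice left out. Here 7 members kept their direction in all 19 alternative fits, and the median log2 fold change of the 10 stayed between -0.099 and -0.051. The count of members with an unadjusted p under 0.05, which was 1, became 2 with limma voom, 2 with the surrogate variable, 0 without both *Opa1*+/- mice with 3-digit animal numbers and 2 without WT_4 and Het_491, the last setting having been chosen after seeing the data. The share of all tested genes under 0.05, 6.72% before, was 10.3%, 7.72%, 2.90% and 8.73% in these settings. With 1 mouse left out the count ranged from 0 to 2 and the share from 3.71% to 10.4%, and the member counted was *Mfn1* in place of *Gdap1* without WT_4. *Mief2* turned to 0.084 with limma voom, to 0.078 with the surrogate variable and to 0.11 without WT_6. *Mfn2* turned to 0.029 without both mice with 3-digit numbers, to 0.030 without WT_5 and to 0.010 without Het_484. *Mtfp1* turned to -0.051 without WT_4 and Het_491, to -0.021 without WT_4 and to -0.010 without WT_5, and it reached 0.33 with the surrogate variable. With 1 mouse left out, the log2 fold changes ranged from -0.059 to 0.030 for *Mfn2*, from -0.092 to 0.11 for *Mief2* and from -0.021 to 0.32 for *Mtfp1*. The log2 difference of the ratio of *Dnm1l* to *Mfn1* ranged from -0.11 to 0.10. The cause was not tested. Litters are not given in the labels, so no paired analysis was made and litter was left out of the fit.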
